A study of Mus musculus with 8 samples.

Results

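Tc are the T cells among leukocytes that were sorted from the brain parenchyma, pia mater and dura mater of mice and sequenced as single cells. They were taken here as the cells that the deposited annotation places in the cluster named Tc, and 1830 of the 32457 annotated cells, which fall into 21 clusters, belong to it. The study compared leukocytes of the 3 compartments between control mice and mice after transient middle cerebral artery occlusion (MCAO), a model of ischaemic stroke in which an artery to the brain is blocked and then reopened. Adult male C57BL/6 mice of 10 to 16 weeks were used, without a transgene. Each mouse received a labelled antibody to CD45, a protein on all leukocytes, into the blood before perfusion, and cells that carried CD45 but not the injected label were sorted as leukocytes of the tissue. The 8 libraries are 1 each of control brain, control pia and control dura, 2 of brain at 24 h after MCAO, and 1 each of pia at 24 h, dura at 24 h and brain at 72 h. The sequencing is described as 2 experiments that were pooled to an n of 5 per compartment, without the number of mice in each library, and how long the artery was blocked for these libraries was not found. Also, the controls are described both as untreated and as sham-operated. One library has labels that conflict, since the title of the control of pia says brain while its tissue, its source and its short name say pia, and it was used as pia.

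T cells recognise peptide fragments through a T cell receptor, whose chains are anchored in the membrane by the CD3 proteins. CD8 T cells read peptides on MHC class I and kill target cells with granzymes and perforin, whereas CD4 T cells read MHC class II and help other cells through cytokines and surface ligands. Natural killer cells (NK) share the cytotoxic genes but lack the T cell receptor, and gamma delta T cells (gdTc) carry another form of the receptor and often a type 17 programme. In the mouse brain and its coverings T cells are sparse at rest and have been studied as part of the immune response to ischaemia.

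The 1830 Tc were spread unevenly over the libraries. Dura had 640 at 24 h and 329 in the control, and pia 289 and 126. Brain had 249 at 72 h, 33 and 133 in replicates 1 and 2 of 24 h, and 31 in the control. A Tc cell had a median of 893 to 1935 unique molecular identifiers (UMIs, each 1 captured mRNA molecule), and the UMIs summed over the Tc of a library ranged from 40506 in control brain to 608477 in dura at 24 h. Thus brain Tc of the control and of replicate 1 at 24 h were measured with the least precision. Of the Tc barcodes, 39 also occurred in another library, and 0 of them was a Tc cell there. The libraries are the units in all comparisons, so p-values measure how far libraries depart from the fitted terms. A group with 1 library has no replicate check of its own.

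Replicate 2 of brain at 24 h and the 72 h library stood apart from the other 6 libraries. Their count tables list 31053 genes in place of 32285, and 30406 genes are shared. Of 3258 genes with at least 100 UMIs in Tc, 1004 (30.8%) differed by more than 1 on the log2 scale between these libraries and the others. Examples are genes that every cell uses, such as the ribosomal gene Rpl13a at 617 and 489 CPM (UMI counts scaled to a sum of 1000000 per library) against 3335 to 4451 in the other 6 libraries. The ribosomal gene Rps21 went the other way, with 7250 and 8830 CPM against 492 to 677. Across genes, Tc of both libraries had a Pearson r of 0.956 with each other, and the replicates of brain at 24 h had one of 0.618. Brain at 72 h and dura at 24 h were also taken as made with version 3 of the single-cell kit and the others with version 2. Shared barcodes do not follow this split. Dura at 24 h shared 12 to 35 barcodes with each other library of the longer list and 1 with brain at 72 h. Replicate 2 of brain at 24 h shared 0 with each library of the longer list and 13 with brain at 72 h. The kit version of these libraries is thus uncertain. Tissues and conditions were therefore compared in all libraries of control and 24 h (7 libraries) and again in the 6 libraries of the longer gene list, which leaves 1 library of each tissue and condition. There the p-values rest on departures from a shared tissue difference and a shared change at 24 h, with no replicate libraries behind them. A gene given with a value for the 6 libraries alone was not called in the 7.

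The share of Tc among annotated cells was lowest in brain and highest in dura. It was 0.721% (exact 95% interval 0.491 to 1.02) in control brain, and 0.720% (0.496 to 1.01) and 3.84% (3.22 to 4.53) in the replicates of brain at 24 h. In brain at 72 h it was 4.12% (3.63 to 4.65). Pia had 4.48% (3.75 to 5.32) in the control and 7.37% (6.57 to 8.23) at 24 h. Dura had 11.7% (10.5 to 13) and 14.2% (13.2 to 15.2). The intervals cover counting error only. In pia and dura the share at 24 h was above that of the control, but each is 1 library, so this is no test of the conditions, and of the replicates of brain at 24 h 1 was at the control value. Outside the microglia clusters the control brain had 5.50%, replicate 1 at 24 h 2.08% and replicate 2 9.05%, on both sides of the control. Among cells with at least 1000 UMIs the share was 7.99% in control dura and 7.86% at 24 h, and 4.15% and 5.09% in pia, below the 5.24% of replicate 2 of brain. Among lymphoid cells (Tc, NK, gdTc, B cells and type 2 innate lymphoid cells) the order of control and 24 h turned in dura, where Tc made up 29.9% of them in the control and 27.3% at 24 h. It did not turn in pia, with 44.8% and 49.4%, and brain had 45.6% in the control and 45.8% and 30.4% in the replicates at 24 h. The ratio of Tc to NK ranged from 1.39 to 2.74 over the 8 libraries and was lowest in the libraries of the shorter gene list. A share rises when other cells fall, so these values do not give numbers of T cells per tissue.

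**Figure D1:**
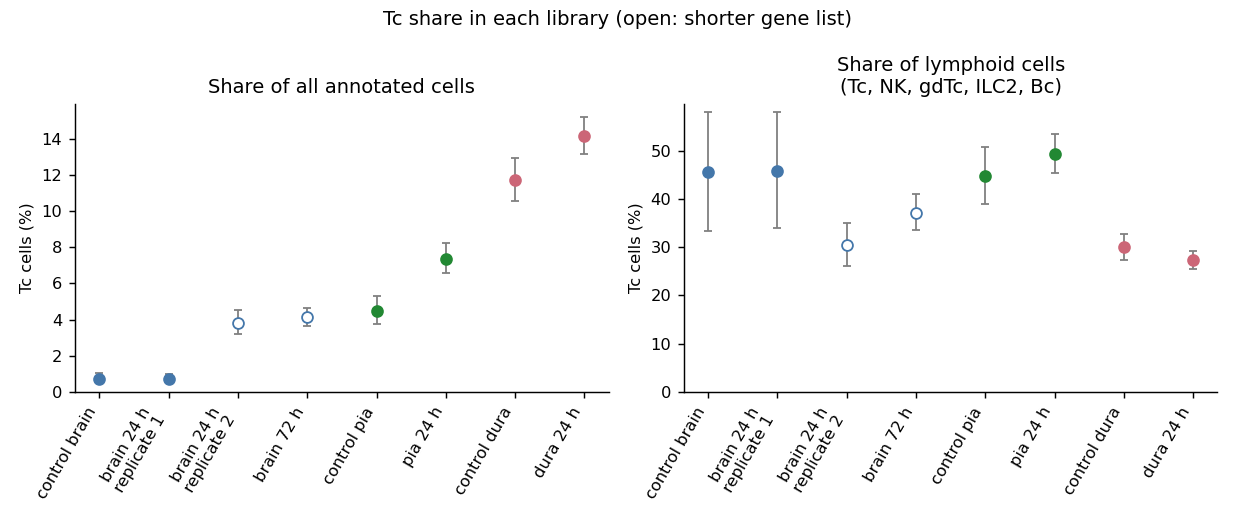
Share of Tc in percent of annotated cells (left) and of lymphoid cells (right) in each of the 8 libraries, with bars for exact 95% intervals of counting error. Open symbols mark the libraries of the shorter gene list. The share of annotated cells was 0.721% in control brain and 14.2% in dura at 24 h, and no such order is seen among lymphoid cells.

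The cluster holds T cell genes. It was made from these counts and named by some of these genes, so the values describe it and are no independent check of its name. After each cell was thinned at random to 500 UMIs, 82.0% to 99.2% of Tc per library had a UMI of a T cell receptor or CD3 gene, and 89.5% to 100% had one without thinning. In B cells of the same libraries the thinned share was 0% to 14.3%. The gap to clusters nearer to Tc was smaller or absent. A list of 7 T cell receptor and CD3 genes had a median log2 ratio of 1.89 against NK and -0.13 against gdTc. The level of Trbc2, which encodes a constant region of the T cell receptor, was 1098 to 2129 CPM in Tc and 3.47 to 97.8 CPM in all other cells of the libraries together. The CD3 gene Cd3g had 2357, 2124, 642 and 639 CPM in brain Tc (control, replicates 1 and 2 of 24 h, 72 h), 1879.8 and 1521 CPM in pia (control, 24 h), and 1934 and 1683 CPM in dura. Its lowest values were those of the shorter gene list. Cd8a, one of the markers by which the cluster was named, did not mark all Tc, as described next. UMIs of Trdc, the constant region of the delta chain, were found in 0% to 5.47% of Tc without thinning, with the highest share in control dura.

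CD8 transcripts were found in part of the Tc, and that part was larger in pia than in dura. Of Tc thinned to 500 UMIs, 48.4% (30.2 to 66.9) in control brain had a UMI of Cd8a or Cd8b1, the genes of the CD8 alpha and beta chains. The share was 21.2% (8.98 to 38.9) and 19.5% (13.2 to 27.3) in the replicates of brain at 24 h and 19.3% (14.6 to 24.7) in brain at 72 h. Pia had 32.5% (24.5 to 41.5) in the control and 30.2% (25 to 35.9) at 24 h, and dura 12.2% (8.83 to 16.2) and 15.2% (12.5 to 18.2). The intervals of both pia libraries lay above those of both dura libraries. The interval of control brain was too wide to place it against pia. Without thinning the shares were 54.8%, 45.5%, 42.1% and 31.7% in brain, 50.8% and 45.0% in pia, and 19.5% and 22.3% in dura, so that the gap between pia and dura was 17.7 percentage points thinned and 27.0 unthinned. In NK the thinned share was 0% in each library but control dura, where it was 1.42%. Median depths before thinning, over the genes that all libraries share, were 888 to 1912 UMIs in Tc and 965 to 2157 in NK.

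CD4 transcripts were found in few Tc. The thinned share with a UMI of Cd4 was 6.45%, 3.03%, 3.76% and 4.02% in brain (control, 24 h replicates 1 and 2, 72 h), 0% and 2.43% in pia (control, 24 h), and 2.74% and 4.22% in dura. In control pia 0 of 126 thinned cells allows a share of up to 2.38% with a UMI at that depth, and without thinning 5 of the same cells had one. In NK it was 0% except for 0.833% in pia at 24 h. Without thinning it ranged from 3.97% in control pia to 18.2% in replicate 1 of brain at 24 h. Over all 1830 cells and without thinning, 560 had UMIs of CD8 genes alone, 131 of Cd4 alone, 8 of both and 1131 of neither. Absence of a UMI does not show that a gene was silent at this depth. Among the cells with exactly one kind, CD8 cells made up 92.8% and 92.1% in pia, 81.8% and 76.4% in dura and 69.6% to 85.0% in brain. CD8 cells could be scored by Cd8a or by Cd8b1, but Cd4 cells only by Cd4, and 1131 cells had neither kind. These shares therefore do not give the composition of the Tc. Foxp3, which marks regulatory T cells, was found in 12 Tc in all, with at most 3 in a library.

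**Figure D2:**
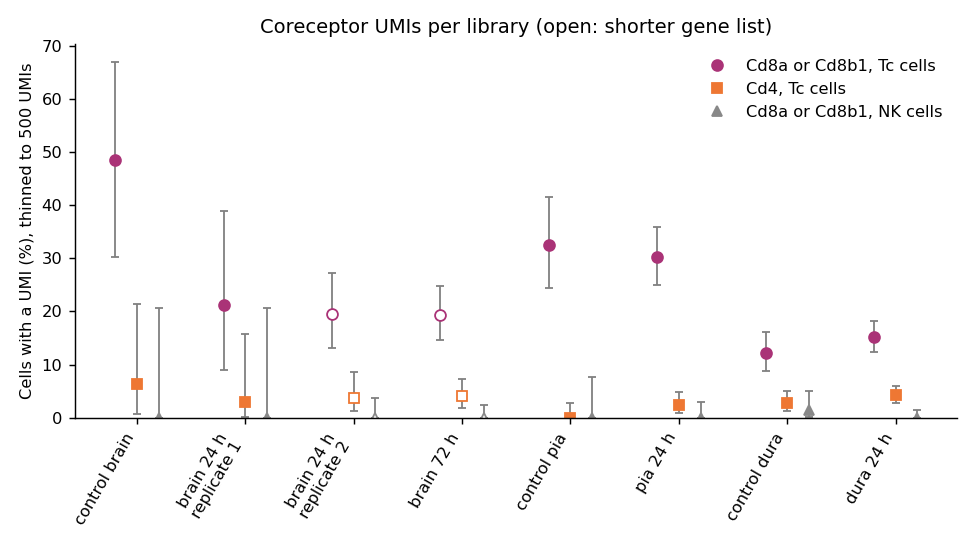
Percent of cells with at least 1 UMI of Cd8a or Cd8b1 in Tc, of Cd4 in Tc and of Cd8a or Cd8b1 in NK, per library, after thinning to 500 UMIs, with exact 95% intervals. The CD8 share of Tc was 32.5% and 30.2% in pia and 12.2% and 15.2% in dura, and at most 1.42% of NK had such a UMI.

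Summed over all Tc of a library, the CD8 genes were likewise higher in pia than in dura. Cd8b1 had 893, 648, 434 and 286 CPM in brain Tc (control, 24 h replicates 1 and 2, 72 h), 654 and 463 CPM in pia and 254 and 258 CPM in dura. Both dura values lay below all others. In such sums a smaller share of CD8 cells and less CD8 mRNA per cell cannot be told apart. In the other cells of the libraries Cd8b1 had 0.23 to 11.9 CPM. Genes were called at an adjusted p under 0.05 and a change of at least 2-fold. In the 6 libraries of the longer gene list, edgeR's quasi-likelihood test with Benjamini-Hochberg adjustment gave a log2 fold change of dura against brain of -1.49 ± 0.23 (SE, adjusted p = 0.000425) for Cd8b1 and of -1.42 ± 0.27 (adjusted p = 0.00397) for Cd8a. Against pia they were -1.12 ± 0.17 (adjusted p = 0.00108) and -1.11 ± 0.19 (adjusted p = 0.00266). Both genes were thus called lower in dura, where 0.706% of all genes tested were lower than in brain and 0.188% lower than in pia. DESeq2 on the same 6 libraries called both against brain and neither against pia (adjusted p = 0.686 for Cd8b1 and 0.946 for Cd8a). With replicate 2 of brain at 24 h included, all of these calls were lost. In those 7 libraries dura against brain was -1.39 ± 0.38 for Cd8b1 (adjusted p = 0.205) and -1.22 ± 0.39 for Cd8a (adjusted p = 0.299), and dura against pia was -1.13 for Cd8b1 (adjusted p of 1). Cd4 differed by -0.79 ± 0.54 between dura and brain (adjusted p = 0.597), which was not called.

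Within Tc, cells with CD8 UMIs and cells with Cd4 UMIs differed in cytotoxic and helper genes. They were compared in the 5 libraries with at least 10 cells of each class, namely replicate 2 of brain at 24 h, the 72 h library of brain, pia at 24 h, and dura of the control and of 24 h, with the library as a block and without the CD8 and CD4 genes that chose the cells. Of 1842 genes tested, 41 (2.23%) were called, 21 higher in CD8 cells (1.14%) and 20 higher in Cd4 cells (1.09%). With scaling by library size alone the split was 14 and 25, and the median over all genes moved from 0.10 to -0.05. DESeq2 called 15 (7 and 8), all of them among the 41. The Cd4 class held 11 to 43 cells per library, and with at least 20 cells of each class per library 18 genes were called.

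Of 19 cytotoxic effector genes, 14 were tested and 12 were higher in CD8 cells, with a median log2 fold change of 1.71 against 0.10 over all genes. DESeq2 called 5 of these, Ccl5, Nkg7, Ctsw, Gzmb and Klrc1, and 4 were called with at least 20 cells per class and 3 after thinning. Ccl5, a chemokine that effector T cells store and release, had 6496, 5626, 15002, 13874 and 15942 CPM in the CD8 cells of the 5 libraries in the order above. It had 1519, 1648, 7180.4, 1683 and 3925 CPM in their Cd4 cells. CD8 cells were higher in each of the 5 libraries, and the log2 fold change was 2.08 ± 0.12 (edgeR, adjusted p = 4.53e-54). Nkg7, a protein of cytotoxic granules, had 1425, 1284, 4413, 4083 and 4781 CPM in CD8 cells and 311, 543, 1138, 1443 and 1410.3 CPM in Cd4 cells, a log2 fold change of 1.84 ± 0.16 (adjusted p = 1.65e-27). The levels of both genes in the shorter gene list libraries were lower in both classes. Cathepsin W (Ctsw) followed with 2.37 ± 0.41 (adjusted p = 1.72e-06), granzyme K (Gzmk) with 1.47 ± 0.45 (adjusted p = 0.0352) and interferon gamma (Ifng) with 1.24 ± 0.40 (adjusted p = 0.0490). Granzyme B (Gzmb) and the inhibitory lectin receptor Klrc1 had 1 UMI each in the Cd4 cells of these libraries, so only a pooled ratio is given, 27.6 for Gzmb (95% counting interval 4.86 to 1098) and 33.6 for Klrc1 (5.95 to 1336). Ly6c2, a surface protein of memory CD8 T cells that is also listed with the interferon-responsive genes, had a log2 fold change of 3.02 ± 0.33.

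Of 10 helper and regulatory genes, 6 were tested and 4 were higher in Cd4 cells, with a median of -1.69. DESeq2 called the same 4, and 1, Tnfrsf4, was called after thinning. Tnfrsf4, which encodes the costimulatory receptor OX40, had 138, 221, 1751, 1363 and 823 CPM in Cd4 cells of the 5 libraries. In CD8 cells it had 13.6, 7.64, 6.21, 23.1 and 33.7 CPM, that is 1 to 5 UMIs per library. The classes did not overlap, and the log2 fold change was -5.25 ± 0.40 (edgeR, adjusted p = 4.90e-36). The related receptor gene Tnfrsf18 (GITR) had -1.23 ± 0.24 (adjusted p = 7.06e-05), the transcription factor gene Maf -2.15 ± 0.48 (adjusted p = 0.000655) and Izumo1r, the folate receptor 4 of helper and regulatory T cells, -3.01 ± 0.62 (adjusted p = 0.000166). The costimulatory receptor gene Icos was also higher in Cd4 cells, with 311, 342, 438, 401 and 399.6 CPM against 95.4, 84.1, 192, 161 and 135 CPM (log2 fold change -1.42 ± 0.32, adjusted p = 0.000715). The interleukin 7 receptor gene Il7r was -1.03 ± 0.31 (adjusted p = 0.0246), which DESeq2 did not call. The T cell receptor gene Trbc2 was not called, at 0.13 ± 0.15 (adjusted p = 0.811), and 0 of 7 T cell receptor and CD3 genes passed. Ttr, a transport protein of the choroid plexus, and Hif1a were also among the genes lower in CD8 cells, at -1.82 and -1.33, and DESeq2 called neither.

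The cells with neither kind of UMI lay between the classes for Ccl5. Their Ccl5 level was 2313, 3832, 7922, 5398 and 8416 CPM in the 5 libraries, above the Cd4 cells in each and below the CD8 cells in each. Their Tnfrsf4 level was 262, 72.8, 925, 1165 and 588 CPM, above the CD8 cells in each library and, in replicate 2 of brain, above the Cd4 cells too. These cells include CD8 and CD4 T cells whose coreceptor was missed, and the files do not tell how many.

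**Figure D3:**
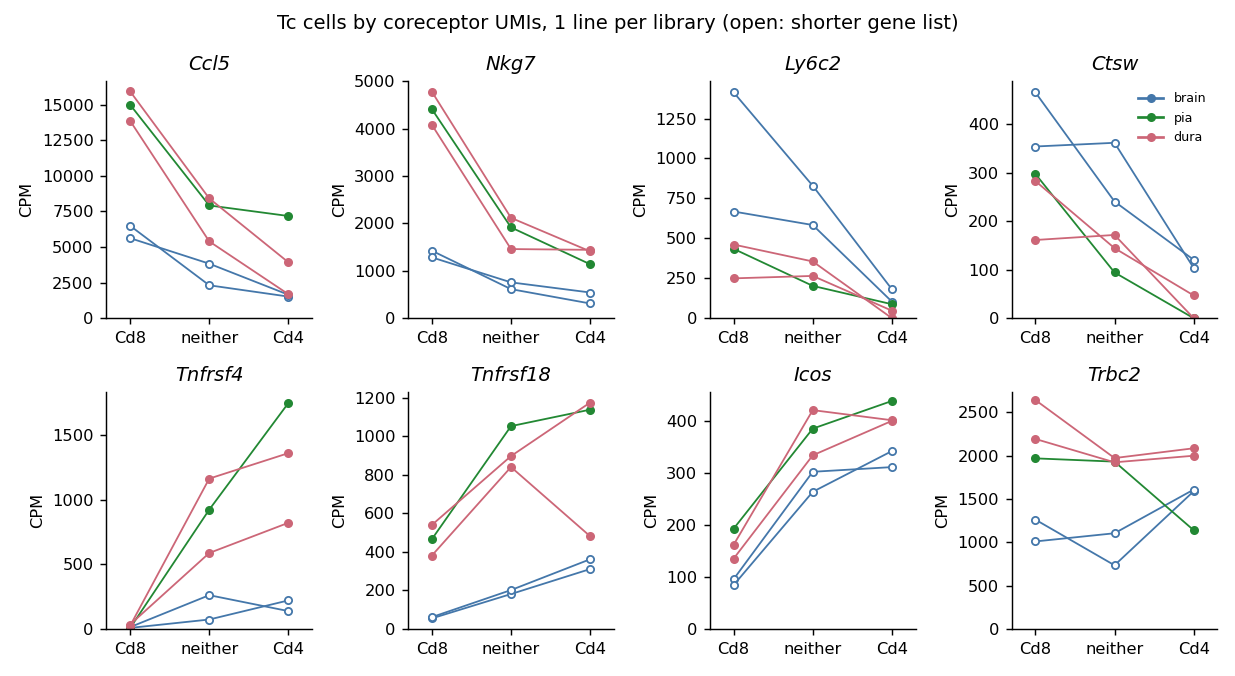
Level in CPM (linear axis from 0) of 8 genes in Tc with CD8 UMIs, with neither and with Cd4 UMIs, a line for each of the 5 libraries compared. Ccl5, Nkg7, Ly6c2 and Ctsw were higher in CD8 cells than in Cd4 cells of each library, Tnfrsf4, Tnfrsf18 and Icos were lower, and Trbc2 differed by 0.13 on the log2 scale.

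Tc of different tissues differed in markers of other cells and, on the longer gene list, in some immediate early genes, which are switched on within minutes of stimulation, and T cell genes. In the 7 libraries, dura against brain had 8 calls of 4712 genes (0.17%), 6 higher in dura (0.127%) and 2 lower (0.0424%), pia against brain had 2 (0.0424%), and dura against pia had 0 (0%), where 49 genes had an unadjusted p under 0.05 and DESeq2 called 1. With control brain left out of the 7, dura against brain and pia against brain both had 0 calls. In the 6 libraries of the longer gene list and 4247 genes, dura against brain had 98 calls (2.31%), 68 higher in dura (1.6%) and 30 lower (0.706%). Pia against brain had 43 (1.01%), 29 higher (0.683%) and 14 lower (0.33%). Dura against pia had 21 (0.494%), 13 higher (0.306%) and 8 lower (0.188%). DESeq2 on the same 6 libraries called 35, 20 and 2, of which 33, 18 and 2 were among those of edgeR. Its split of dura against brain was 15 higher and 20 lower, and that of pia against brain 8 and 12. For dura against pia both were higher in dura and 0 lower. Of the genes named below for dura against brain, DESeq2 did not call Nr4a1, Cd28, Gzmb, Satb1, Crem, Il21r and Il4ra in the 6 libraries. Brain Tc of these 6 libraries are the 64 cells of the control and of replicate 1. The tissues were also prepared in different ways. By the paper's methods brain was digested with collagenase D and DNase I and then spun on a density gradient. Pia and dura were digested for longer with collagenase D, and no gradient is given for them. In comparisons of brain with pia or dura, tissue and preparation therefore cannot be told apart.

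Some immediate early genes were higher in brain Tc of the longer gene list. Of 12 such genes tested in the 6 libraries, 4 were called lower in dura than in brain and 1 higher, with a median of -0.95 against 0.08 over all genes, and 5 were called lower in pia than in brain, with a median of -0.92 against 0.10. In the 7 libraries 0 of the 12 were called for dura against brain, with a median of -1.17. Fos, a subunit of the AP-1 transcription factor, had 1067, 1095, 1425 and 1566 CPM in brain Tc (control, 24 h replicates 1 and 2, 72 h). It had 327 and 165 CPM in pia and 237 and 187 CPM in dura. All 4 brain libraries lay above all others, on both gene lists. The log2 fold change of dura against brain was -2.29 ± 0.24 in the 6 libraries (edgeR, adjusted p = 3.87e-06) and -2.67 in the 7 (adjusted p = 0.0607), where DESeq2 called it. Its partner Jun had 571, 1341, 1281 and 1197 CPM in brain, 339 and 227 CPM in pia and 154 and 203 CPM in dura, a log2 fold change of dura against brain of -2.35 ± 0.30 (adjusted p = 3.43e-05 in the 6 libraries). The brain values again did not overlap those of the meninges.

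The phosphatase gene Dusp1 had 2654, 3465, 1030.1 and 955 CPM in brain, 1086 and 703 CPM in pia and 1161 and 1123 CPM in dura. Here the brain libraries of the shorter list fell within the range of the meninges. The log2 fold change of dura against brain was -1.37 ± 0.16 (edgeR, adjusted p = 2.24e-05) in the 6 libraries. Nr4a1, an orphan nuclear receptor gene that T cell receptor signals induce, went the opposite way, with 99.2, 156, 71.8 and 108 CPM in brain, 374 and 239.5 CPM in pia and 422 and 324 CPM in dura. Its log2 fold change of dura against brain was 1.58 ± 0.37 (adjusted p = 0.0199) in the 6 libraries and no brain value reached those of the meninges. The AP-1 gene Junb was not lower in dura by 2-fold, with 10642, 15089.5, 2459 and 2552 CPM in brain against 6689 and 8168 CPM in dura.

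The other cells of each library showed the same order for Fos, with 9514, 5144, 2808 and 1973 CPM in brain, 1952 and 829 CPM in pia and 1112 and 798 CPM in dura. For Dusp1 they had 12206, 8674, 1841 and 1064 CPM in brain against 1513 to 3105 CPM in the meninges. Both genes were more abundant there than in Tc of the same library for each library. RNA from other cells may enter the Tc sums, and its part in these differences was not tested. Of the 30 genes lower in dura than in brain, 23 were lower in Tc than in the other cells of the libraries, and of the 68 higher in dura, 25 were. The other 7 and 43 genes were not. This share was not taken over all genes tested, so the counts do not show an excess or a lack of such genes.

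Genes of the T cell lists were also among the tissue differences in the 6 libraries. Cd28, the costimulatory receptor of T cells, had 843, 760.1, 614 and 594 CPM in brain Tc, 414 and 292 CPM in pia and 430.3 and 319 CPM in dura, and 0.461 to 10.2 CPM in the other cells. Each brain library lay above each library of the meninges. The log2 fold change was -1.04 ± 0.21 for dura against brain (edgeR, adjusted p = 0.00627) and -1.10 ± 0.22 for pia against brain (adjusted p = 0.00981) in the 6 libraries. DESeq2 on the same libraries called Cd28 in neither comparison (adjusted p = 0.195 and 0.230). The counts that follow are those of edgeR. Of 14 signalling and costimulation genes tested Cd28 was the only one called for dura against brain, and the list had a median of -0.04. Of 7 T cell receptor and CD3 genes 0 were called, with a median of 0.13. Of 17 cytotoxic effector genes 2 were lower in dura than in brain, granzyme B (Gzmb, -1.49 ± 0.39, adjusted p = 0.0342) and the chemokine gene Ccl4 (-1.62 ± 0.31, adjusted p = 0.00354), with a list median of -0.19. Gzmb had 198 CPM in control brain, 671 and 39.5 CPM in the replicates at 24 h and 185 and 125 CPM in dura. Its log2 fold change in the 7 libraries was -0.73, which was not called, and 0.79 with replicate 1 left out of them. Ccl4 had 609 CPM or less in the other cells of dura and 1600.2 to 5545 CPM in those of brain.

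Klf2, a transcription factor gene of naive and circulating T cells, had 1290.0, 1542, 786 and 1038 CPM in brain, 619 and 566 CPM in pia and 607 and 616 CPM in dura. All brain libraries were above the meninges, and the log2 fold change of dura against brain was -1.15 ± 0.17 (edgeR, adjusted p = 0.000202) in the 6 libraries. The other cells of brain had 915 to 7765 CPM of Klf2, and those of dura 545 and 363 CPM. Of the 10 genes of the naive and central memory list that were tested, Klf2 was called lower in dura and Satb1, a chromatin organiser, higher, with a list median of 0.86. For Satb1 no fold is given, since it had 2 and 1 UMIs (49.6 and 22.4 CPM) in brain Tc of the longer gene list, but 251 and 180.5 CPM in those of the shorter list, against 209.6 and 302 CPM in dura. The difference was therefore one of the 6 libraries only. The lymph node homing gene Ccr7 was not called, at 2.14 ± 0.63 (adjusted p = 0.0718).

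Some regulators were higher in Tc of the meninges than of brain. Tgif1, a transcriptional repressor, had 24.8, 67.1, 46.7 and 111 CPM in brain, 315 and 373 CPM in pia and 447 and 461 CPM in dura. The groups did not overlap on either gene list, and the log2 fold change of dura against brain was 3.20 ± 0.45 (edgeR, adjusted p = 0.0154) in the 7 libraries and 3.32 ± 0.45 (adjusted p = 6.84e-05) in the 6. Over the 7 libraries Tgif1 had a mean of 248 CPM in Tc and 239 CPM in the other cells, whose part in its difference was not tested. Crem, a cAMP-responsive regulator listed with tissue residency genes, had 0, 246, 32.3 and 27.8 CPM in brain, 659.7 and 743 CPM in pia and 739 and 814 CPM in dura. It was 2.66 ± 0.40 higher in dura on the log2 scale (adjusted p = 0.000273) in the 6 libraries and 3.48 in the 7 (adjusted p = 0.0925). DESeq2 called it in the 7 but not in the 6. The other cells had 7.51 to 15.1 CPM of Crem in brain and 168 to 394 CPM in the meninges, so the same order was seen there. The heat shock cochaperone gene Dnaja1, with 943, 514, 542 and 439 CPM in brain against 1594 to 2113 CPM in the meninges, was the one member called of 9 tested (1.52 ± 0.19 for dura against brain, adjusted p = 3.43e-05 in the 6 libraries). All 9 had positive values there, with a median of 0.51, but 7 of 9 in the 7 libraries, with a median of 0.17 and 0 called. Over the 6 libraries Dnaja1 had a mean of 1463 CPM in Tc and 982 CPM in the other cells.

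A further 3 genes were picked after their values were seen. The receptor gene for interleukin 21, Il21r, had 74.4, 89.4, 147 and 86.1 CPM in brain and 286 to 355 CPM in the meninges, with 2.07 ± 0.41 for dura against brain (edgeR, adjusted p = 0.00567 in the 6 libraries). The interleukin 4 receptor gene Il4ra had 49.6, 44.7, 108 and 61.1 CPM in brain and 201 to 264 CPM in the meninges, with 2.31 ± 0.53 (adjusted p = 0.0166). Vps37b, of the endosomal sorting machinery, had 372, 447, 642 and 678 CPM in brain and 1985 to 2911 CPM in the meninges, with 2.77 ± 0.17 (adjusted p = 7.90e-10), and 89.8 to 717 CPM in the other cells. For each of the 3 genes the highest brain value was below the lowest value of the meninges. Over the 6 libraries the means in Tc and in the other cells were 245 and 66.5 CPM for Il21r and 177 and 168 CPM for Il4ra. The part of the other cells in these differences was not tested.

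The 21 genes that differed between dura and pia Tc included the CD8 genes and transcripts of other cell types. S100a6, a calcium-binding protein of activated and memory T cells, had 1524 and 986 CPM in pia and 654 and 561 CPM in dura, with a log2 fold change of -1.04 ± 0.14 (edgeR, adjusted p = 0.000213) in the 6 libraries, which DESeq2 did not call (adjusted p = 0.807). Brain had 805 to 1612 CPM. Trat1, which stabilises the T cell receptor complex and was picked after its values were seen, was higher in dura, with 119 and 95.8 CPM against 40.9 and 28.0 CPM in pia (1.62 ± 0.37, edgeR, adjusted p = 0.0380, not called by DESeq2), and at most 1.87 CPM in other cells. The 7 helper and regulatory genes tested were all positive for dura against pia, with a median of 0.87 against -0.01 over all genes, and 0 of them was called. Tnfrsf4 had 894 and 464 CPM in dura Tc and 158 and 491 CPM in pia Tc, which overlap. Of the 13 genes higher in dura, 11 were lower in Tc than in the other cells, among them the neutrophil genes Ngp, S100a8 and S100a9 and the immunoglobulin genes Igkc, Igha and Jchain. Again the share over all genes tested was not taken.

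**Figure D4:**
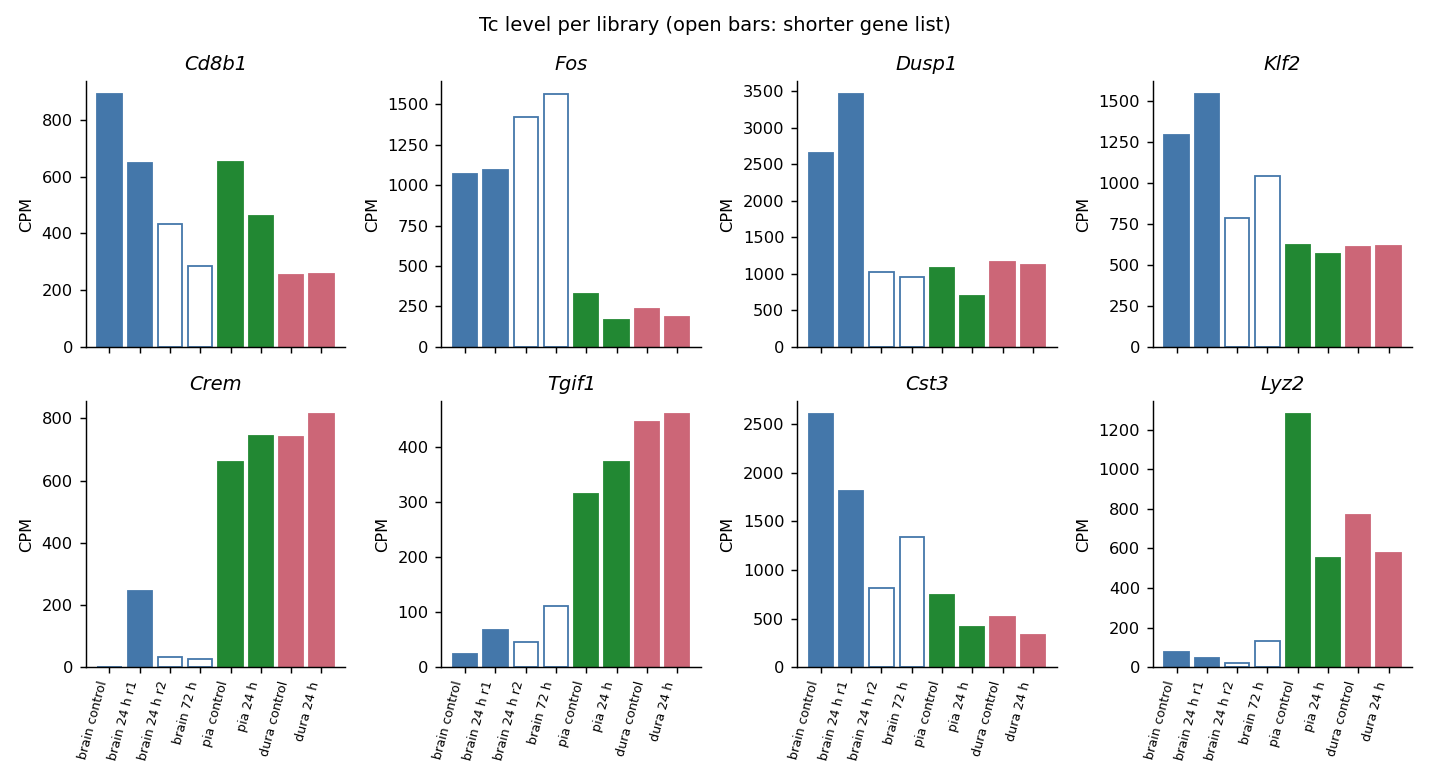
Level in CPM of 8 genes in Tc of each library, as bars from 0. Fos was highest in the 4 brain libraries, Crem and Tgif1 in pia and dura, and Cd8b1 lowest in dura. Cst3 and Lyz2, markers of microglia and macrophages, show how transcripts of other cells differed between the tissues.

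Transcripts of other cell types moved with the tissue. The 10 microglia markers summed to 4961, 2794, 1522 and 2227 CPM in brain Tc and to 443 to 1051 CPM in the meninges, with Cst3 the most abundant. In control brain all 10 were above 0, whereas Tmem119, P2ry12, Sparc and Siglech were at 0 in dura at 24 h. Cst3, which encodes the protease inhibitor cystatin C, had 2605, 1811, 818 and 1341 CPM in brain Tc and 332 to 747 CPM in the meninges, so no brain library overlapped them. Its log2 fold change of dura against brain was -2.12 ± 0.45 (edgeR, adjusted p = 0.0925) in the 7 libraries, which did not pass, and -2.32 ± 0.16 (adjusted p = 2.82e-09) in the 6. The dendritic cell list of 10 genes, with Cd74 and the MHC class II genes, summed to 43.1 to 444 CPM in brain Tc and 2139.9 to 5739 CPM in the meninges. Its member H2-Aa was 4.18 ± 0.54 higher in dura than in brain in the 7 libraries (log2 fold change, edgeR, adjusted p = 0.0106), and the macrophage gene Lyz2 3.91 ± 0.47 (adjusted p = 0.00800). Their brain values rest on 1, 1 and 3 UMIs of H2-Aa and 3, 2 and 6 of Lyz2. In Tc of dura at 24 h, 8 of the 10 dendritic cell genes were above 0, and Clec9a and Xcr1 were at 0. The 10 macrophage markers summed to 847 to 1945 CPM in brain Tc and 2559.9 to 6539 CPM in the meninges, with Apoe the most abundant in control pia and dura at 24 h and Pf4, Mrc1, Ms4a7 and Lyve1 at 0 in control brain. The 9 B cell markers summed to 133 to 247 CPM in Tc of brain and pia, where Ighm led, and to 778 and 776 CPM in dura, where Igkc led and Ms4a1 was at 0 at 24 h. The light chain gene Igkc was at 0 in brain Tc of the longer gene list and at least 14.3-fold higher in dura, and it was also called in the 7 libraries (adjusted p = 0.00482). The 10 neutrophil markers summed to 433 and 897 CPM in dura Tc and to at most 129 CPM elsewhere, and were all at 0 in control brain. The 7 red cell and platelet markers summed to 531 and 549.8 CPM in the libraries of the shorter list and to at most 24.8 CPM in the others. Whether these UMIs were free RNA or cells of other types in the cluster was not tested.

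The stroke comparison asked whether Tc changed at 24 h after MCAO, as a change shared by the 3 tissues. In the 7 libraries 0 of 4712 genes were called (0%). By edgeR 84 genes and by DESeq2 39 had an unadjusted p under 0.05, and DESeq2 also called 0. In the 6 libraries of the longer gene list edgeR called 10 of 4247 genes, all lower at 24 h (0.235%), and DESeq2 called 0. When dura at 24 h, taken as of the other kit version, was also left out, 21 genes were called, 6 higher and 15 lower. Of these 2, Serinc3 and H2-Aa, were among the 10. The genes below are therefore given by their values in each library.

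Markers of other cells had values of a like size. In the 7 libraries 7 of the 8 microglia markers tested had negative values (median -0.86), as had 7 of 8 macrophage markers (-0.78) and 4 of 4 dendritic cell markers (-0.76), and 5 of 5 neutrophil markers had positive ones (1.41), with 0 called in each list. In the 6 libraries the medians were -0.92, -0.52, -0.85 and 1.14, and P2ry12 of microglia and H2-Aa of dendritic cells were among the 10 calls. The microglia markers summed to 1051 and 544 CPM in Tc of pia (control, 24 h) and to 670 and 443 CPM in Tc of dura. Of the 10 genes called, 5 were lower in Tc than in the other cells of the libraries. The share over all genes tested was not taken, and the part of other cells in the values below was not tested.

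The genes of the type I interferon response all had negative values at 24 h, and calls among them were made in the 6 libraries only. The list has 14 members, and all 14 were negative in the 7 libraries, with a median log2 fold change of -0.87 against 0.04 over all genes and 0 called. In the 6 libraries the median was -0.94 against 0.00, and 2 of the 14 were called lower by edgeR, where 0.235% of all genes tested were. Ifi27l2a, a small interferon-induced membrane protein, had 273 CPM in control brain Tc and 268 and 355 CPM in the replicates of brain at 24 h. It had 508 CPM in control pia and 271 CPM at 24 h, and 623 CPM in control dura and 149 CPM at 24 h. The largest difference was in dura, and the values of control brain and replicate 1 rest on 11 and 12 UMIs. The log2 fold change was -1.45 ± 0.22 (edgeR, adjusted p = 0.00113) in the 6 libraries, -0.89 ± 0.48 (adjusted p = 0.998) in the 7 and -0.77 (adjusted p = 0.17) without dura at 24 h. NK had 0 to 88.3 CPM of Ifi27l2a.

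Ifit3, which encodes an interferon-induced protein with tetratricopeptide repeats, had 174 CPM in control brain Tc and 112 and 35.9 CPM in the replicates at 24 h. It had 111 and 37.3 CPM in pia, and 108 and 38.0 CPM in dura (control, 24 h). Each library at 24 h was below the control of its tissue, although the brain values of the longer gene list rest on 7 and 5 UMIs. The log2 fold change was -1.42 ± 0.32 (edgeR, adjusted p = 0.0252) in the 6 libraries and -1.50 (adjusted p = 0.998) in the 7. Its near-identical neighbour Ifit3b had 124 CPM in control brain and 0 and 7.18 CPM at 24 h, 40.9 and 15.6 CPM in pia, and 46.9 and 3.3 CPM in dura, a log2 fold change of -2.71 ± 0.63 (adjusted p = 0.0328) in the 6 libraries, from 36 UMIs in all. Their promoters are shown because both genes were called and the sequences show how alike the pair is. The sequences are from RefSeq on build GRCm38.p6, as 200 bases on the plus strand, chr19:34583329-34583528 for Ifit3 and chr19:34607757-34607956 for Ifit3b. Capitals mark matches to GAAANNGAAA, the core of the element bound by the interferon-activated factor ISGF3 and by interferon regulatory factors, here on the reverse strand.
Ifit3: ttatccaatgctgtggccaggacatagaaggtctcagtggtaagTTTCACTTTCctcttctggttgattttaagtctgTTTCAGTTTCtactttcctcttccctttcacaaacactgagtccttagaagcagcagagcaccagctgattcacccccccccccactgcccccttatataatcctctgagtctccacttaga
Ifit3b: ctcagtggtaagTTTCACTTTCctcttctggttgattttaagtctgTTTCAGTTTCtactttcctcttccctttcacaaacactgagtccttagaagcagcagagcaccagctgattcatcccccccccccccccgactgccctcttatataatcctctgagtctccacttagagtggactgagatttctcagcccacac
Each window holds 2 matches. Both share a run of 119 identical bases, and counts of the genes are uncertain where reads could have been split between them. Of the 14 members of the interferon list 8 had a promoter in the table and 5 of them held the motif on either strand within 250 bases before the start, against 978 of 32851 promoters (2.98%). A match says only that these letters are present.

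By tissue, the values of the interferon genes were all negative in dura, where the kit version at 24 h is uncertain, and of both signs in pia, with 1 library each and no test. Among members with at least 10 UMIs over the libraries compared, 14 of 14 were lower in dura at 24 h than in the control, with a median of -1.43. In pia 5 of 14 were lower, with a median of 0.08. In brain 8 of 9 were lower in replicate 1 (median -0.60) and 9 of 11 in replicate 2 (median -1.32), the latter across the gene lists. NK of dura had 12 of 13 lower with a median of -0.86, gdTc of dura 12 of 12 with -1.43, and the other cells of dura 14 of 14 with -1.30, the same direction as in Tc. In pia NK had 10 of 10 lower with a median of -0.76. In brain the other cells had 11 of 14 higher, with a median of 0.51, opposite to Tc. With 1 library each in dura, stroke and other differences between the libraries cannot be told apart.

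**Figure D5:**
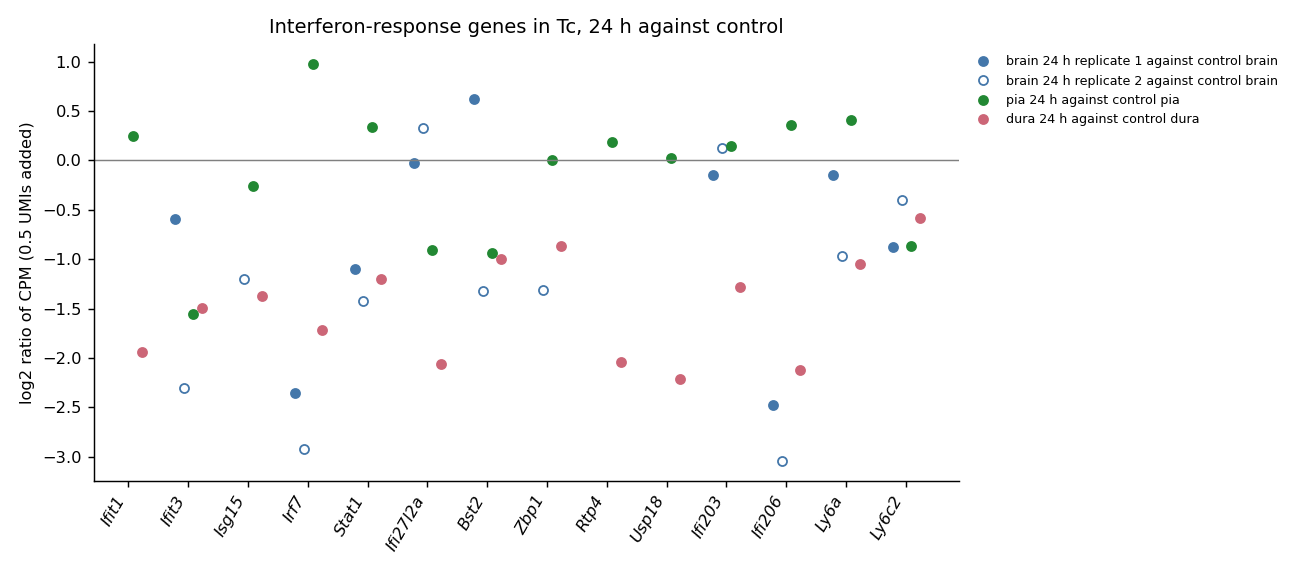
Log2 ratio of CPM at 24 h to control in Tc for the 14 interferon genes, for brain replicates 1 and 2, pia and dura, with points for members with at least 10 UMIs over the 2 libraries and a line at 0. All 14 points of dura lie below 0, whereas those of pia lie on both sides with a median of 0.08.

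Of the MHC class I and peptide loading genes 0 of 10 were called in the 7 or the 6 libraries. All 10 had negative values, with a median of -0.29 in the 7 libraries and -0.34 in the 6. B2m, the light chain of MHC class I, had 7343 CPM in control brain Tc and 5097 and 1705 CPM at 24 h, 7274 and 4899 CPM in pia, and 6407 and 4070.1 CPM in dura. It was lower at 24 h in each tissue, with a log2 fold change of -0.61 ± 0.07 (edgeR, adjusted p = 6.52e-05) in the 6 libraries, which is under 2-fold. The other cells had 4319.6 and 2378 CPM in pia and 3902 and 2463 CPM in dura, in the same direction. By tissue 10 of 10 members were lower in dura, 6 of 10 in pia and 7 of 10 in replicate 1 of brain.

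Serinc3, a membrane protein that incorporates serine into lipids, had 447 CPM in control brain Tc and 246 and 330.2 CPM at 24 h, 479 and 174 CPM in pia, and 615 and 277 CPM in dura. It was lower at 24 h in each of the 4 pairs, and the log2 fold change was -1.24 ± 0.16 (edgeR, adjusted p = 0.000127) in the 6 libraries and -0.98 in the 7. It was also lower in NK, with 1036 and 352 CPM in pia and 1087 and 443 CPM in dura, and in the other cells, with 1395 and 365 CPM in pia. The chromatin protein gene Cbx3 (-1.05) and the phosphatase gene Ptpn6 (SHP-1, -1.29), which restrains T cell receptor signals, were called in the 6 libraries only, as was Ikzf2 (Helios, -1.47), which control brain lacked and whose direction turned when a pia or dura library was left out of the 7. Of chemokine receptor and adhesion genes 14 of 15 were negative in the 6 libraries and Cxcr6, a receptor of tissue-resident T cells, had 1042 and 782 CPM in brain (control, replicate 1), 654 and 336 CPM in pia and 632 and 388 CPM in dura (-0.76, adjusted p = 0.00443, under 2-fold). Replicate 2 of brain had 190.2 CPM. In the 6 libraries the genes past the adjusted p without a fold minimum were 8 higher (0.188%) and 47 lower (1.11%), against 0 in the 7 libraries, and the higher ones included Ccl5 (0.32, adjusted p = 0.0259) and Junb (0.38, adjusted p = 0.00638). Of 17 cytotoxic genes 0 were called, and a UMI of Mki67, a gene of dividing cells, was found in 13 Tc in all, 11 of them in the libraries of the shorter gene list. The annotation has a separate cluster of proliferating cells, so this count gives no rate of division for T cells.

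The stroke effect did not differ detectably between Tc and NK. Of 5689 genes tested in the 5 control and 24 h libraries with at least 30 cells of both, 0 differed (0%), with 223 at an unadjusted p under 0.05 by edgeR and 1 by DESeq2, which also called 0. The fit has 1 residual degree of freedom among libraries, so this does not show that Tc and NK changed alike.

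In the same fit edgeR called 6 genes (0.105%) for a difference between dura and brain in Tc unlike that in NK, with 4 higher in Tc relative to NK (0.0703%) and 2 lower (0.0352%). Brain is represented there by replicate 2 of 24 h alone, so its spread is assumed to be that of the other libraries, and tissue and the shorter gene list cannot be told apart. DESeq2 called 0 genes (11 at an unadjusted p under 0.05, against 288 by edgeR), and the values below describe these libraries. Klf2 had a log2 difference of 2.20 ± 0.27. Its level in NK was 1696 CPM in that brain library and 263 and 253 CPM in dura (control, 24 h), against 786, 607 and 616 CPM in Tc. In control brain and replicate 1, which have the longer list and too few NK for the fit, NK had 1733 and 1766 CPM of Klf2, so NK of brain were above NK of dura in these 3 libraries. Tc of brain were also above Tc of dura there, with 1290.0 and 1542 CPM. The others higher in Tc were Gzmb (3.01 ± 0.45), the chemokine gene Ccl5 (1.11 ± 0.17) and Tnfsf8, which encodes the CD30 ligand (5.41 ± 1.31). Tnfsf8 had 10 UMIs in NK of that brain library and 1 and 0 in NK of dura, so its value rests on few counts. Emb, which encodes the membrane protein embigin (-1.49 ± 0.27), and Gramd3 (-3.30 ± 0.73) were lower, and Gramd3 had 2 UMIs in NK of that brain library.

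From 24 h to 72 h, brain Tc can be compared between replicate 2 and the 72 h library, which share the shorter gene list. Whether they share the kit version is uncertain. With 1 library each there is no test, and intervals cover counting error only. Of 3383 genes with at least 50 CPM in either, 93 (2.75%) were at least 2-fold higher at 72 h and 179 (5.29%) lower. Ifi27l2a had 355 CPM at 24 h and 836 CPM at 72 h, a log2 ratio of 1.23 (0.90 to 1.58). Of the 10 interferon genes at this level 2 were at least 2-fold higher, with a median of 0.76 against -0.12 over all genes. Cxcl10, an interferon-induced chemokine, had 25.1 and 153 CPM (2.52, 1.47 to 3.98), and 2.32 in NK. Of 16 cytotoxic genes 3 were at least 2-fold higher, with a median of -0.05, and among them Xcl1 and Gzmb were at 1.37 (0.87 to 1.93) and 1.37 (0.42 to 2.54). Ikzf2 was lower, with 205 and 83.3 CPM (-1.29, -1.99 to -0.63). Transcripts of other cells were also higher at 72 h, with Apoe at 2.03 (1.56 to 2.56) and 3.70 in NK, and all 4 dendritic cell markers at this level higher with a median of 2.97.

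Against NK of the same library, Tc had more of the T cell receptor and less of the killing genes. The clusters were made from these counts, so this is a description with no test, over 6 libraries with at least 30 cells of both and 3392 genes with at least 50 CPM in either, of which 86 (2.54%) were at least 2-fold higher on average and of one sign in every library and 146 (4.3%) lower. Trac, the alpha chain constant region, was 4.03 ± 0.64 higher on the log2 scale (SD, n = 6 libraries), Cd3e 3.25 ± 0.72 and the inhibitory scavenger receptor gene Cd6 4.76 ± 1.13. Of 17 cytotoxic genes 10 were lower and 1, Gzmk, was higher, at 3.84 ± 0.64. Granzyme A (Gzma) was -5.22 ± 1.01, perforin (Prf1) -2.81 ± 0.92 and the activating receptor gene Ncr1 -6.41 ± 1.07. Ccl5 was not separated by this rule, at -0.32 ± 0.67, nor was Cxcr6, at 0.28 ± 0.46. All 13 NK receptor and adaptor genes were lower, with a median of -4.32. Of 13 interferon genes 3 were higher, led by Ifi27l2a at 4.14 ± 1.89.

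Against gdTc the order turned, since Tc had more of the cytotoxic genes. Over 4 libraries and 3500 genes, 154 (4.4%) were higher and 287 (8.2%) lower in Tc, and 13 of 15 cytotoxic genes were higher with a median of 3.78. Ccl5 was 7.45 ± 0.46 (SD, n = 4 libraries) higher and Nkg7 4.55 ± 1.27. Gzmk was at 0 in gdTc and at least 32.3-fold higher in Tc. The delta chain gene Trdc was -6.08 ± 0.38 and the scavenger receptor gene Cd163l1 -8.14, and all 13 gamma delta and type 17 genes at this level were lower, with a median of -5.87. The CD3 and T cell receptor list had 1 of 7 higher and a median of -0.13. Of 14 signalling and costimulation genes 8 were higher in Tc and 1, Icos, was lower (-1.49), with a median of 2.15. Of 10 naive and central memory genes 6 were higher and 1, Il7r, was lower (-1.59), with a median of 1.83. Of 14 chemokine receptor and adhesion genes 5 were higher and 3 lower, with a median of 0.19, and Cxcr6 (-2.25 ± 0.38) and the chemokine receptor gene Ccr2 (-2.42) were among the lower.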

How the data were processed

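The files hold single-cell RNA-seq of sorted leukocytes in 8 libraries. The deposited UMI counts per gene and barcode were made by the authors with Cell Ranger 6.0 on mm10 and are not normalised. The authors filtered cells, removed doublets, integrated the libraries with Harmony and named the clusters, and their deposited annotation gives the cluster and UMAP scores of each cell, of which only the cluster was used. Barcodes were joined to the annotation by library, and no column of another series was found (0 unused columns). Total UMIs per library ranged from 6591898 to 20754181.

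UMIs were summed over the Tc of each library over the 30406 shared genes, and libraries with at least 30 cells entered a fit. The test was the two-sided quasi-likelihood F test of edgeR 4.0.16 (robust glmQLFit, glmQLFTest) after TMM scaling and filterByExpr, in R 4.3.3, with tissue and condition as terms and brain at 72 h left out. Genes were called at a Benjamini-Hochberg adjusted p under 0.05 and at least 2-fold. The SE beside an edgeR log2 fold change is its size divided by the square root of the F statistic, so it restates the test. DESeq2 1.42.0 was the other tool. Cells were thinned at random to 500 UMIs (1000 as an alternative). Intervals are exact (Clopper-Pearson, 95%), and 0 counts were taken to allow 3. For ratios within libraries 0.5 counts were added to each sum. PCR duplicates are removed by UMIs, and intervals cover counting error only. The scripts were tested on simulated data, and matplotlib 3.10.9, pandas 2.3.3, SciPy 1.17.1 and NumPy 2.4.6 served for figures and tables under Python 3.11.15.

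The rule for named genes was 2 to 6 members of each of 27 gene lists and the 10 called genes with the highest and lowest log2 fold change per comparison. More members are named for some lists, the cytotoxic one above all, and Rpl13a and Rps21 were picked after their values were seen, as were the genes of which this is said. The members and lists were chosen with earlier results of these data known. Some genes are not reported here.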

Additional observations from a re-analysis of the deposited data

Results flagged for a closer look

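For 6 genes edgeR called the difference between dura and brain unlike in Tc and NK (cell type by tissue, library as a block, 5 libraries with at least 30 cells of both, 1 residual degree of freedom). They are 6 of 5689 genes tested (0.105%), 4 with a larger value in Tc (0.0703%) and 2 with a smaller one (0.0352%). Brain is represented by replicate 2 of 24 h alone, a library of the shorter gene list, so gene list and tissue cannot be told apart here, and the spread of brain is assumed to be that of the other libraries. DESeq2 called 0 of them, and no value can be had without that library, so the values below describe these libraries only.

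Klf2 differed by 2.20 ± 0.27 on the log2 scale. Tc had 786 CPM in brain replicate 2 and 607 and 616 CPM in dura, and NK had 1696 CPM and 263 and 253 CPM, so the gap was wider in NK. The brain libraries of the longer list had 1290.0 and 1542 CPM in Tc and 1733 and 1766 CPM in NK (16 NK cells each). Gzmb differed by 3.01 ± 0.45, with 39.5 CPM against 185 and 125 CPM in Tc and 697 CPM against 516 and 281 CPM in NK. Ccl5 differed by 1.11 ± 0.17 (adjusted p = 1.40e-05), with 4408 CPM against 7296 and 9930.0 CPM in Tc and 9407 CPM against 8255 and 8147 CPM in NK. Against replicate 2, Tc of dura were higher for both cytotoxic genes and NK lower. Brain Tc of the longer list had 198 and 671 CPM of Gzmb, above both dura libraries, and 9030 and 11401 CPM of Ccl5, which overlap dura. Brain at 72 h had 106 and 4171 CPM, so the direction in Tc is seen only against the libraries of the shorter list. Tnfsf8, the ligand of CD30, differed by 5.41 ± 1.31, with 57.4 CPM against 77.2 and 84.2 CPM in Tc and 43.6 CPM against 5.6 and 0 CPM in NK, from few UMIs.

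Emb, an adhesion protein of the immunoglobulin family, differed by -1.49 ± 0.27, with 775 CPM against 833 and 973 CPM in Tc and 340.0 CPM against 1149 and 1080.2 CPM in NK. Gramd3 differed by -3.30 ± 0.73, with 223 CPM against 1183 and 959 CPM in Tc and 8.72 CPM against 695 and 360.1 CPM in NK. Both genes were higher in dura than in replicate 2 in each cell type, with the wider gap in NK.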

How the results depend on the processing

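Counts of calls depended on single libraries of either gene list, on the low-count filter and on the tool. The counts of dura and of pia against brain were 0 without control brain. Tissues and conditions have no replicate block, because only brain at 24 h has 2 libraries and no other group shares a replicate number 2. No paired analysis of them was therefore possible, whereas classes of cells were compared within libraries. For the stroke effect (0 calls) the count was 1 with no low-count filter, 21 with the longer gene list and kit version 2 only, and 0 to 10 with a library left out. For dura against brain (8) it was 39 with DESeq2 (21 higher, 18 lower), 32 with library size scaling, 117 with no filter, 3 after thinning, 38 with 72 h added, 35 with DESeq2 on the longer list, 108 with kit version 2 only and 0 to 98 with a library left out. For pia against brain (2) these were 18, 11, 43, 0, 11, 20, 67 and 0 to 43, and for dura against pia (0) 1, 2, 8, none that changed after thinning, 2, 2, 22 and 0 to 21. CD8 against Cd4 cells (41) gave 15 with DESeq2, 70 with no filter, 11 after thinning, 18 with at least 20 cells per class, 0 without the library block, 84 with no fold minimum and 27 to 34 with a library left out. Tissue in Tc against NK (6) gave 0 with DESeq2 and 2 after thinning, and leaving out a library could not be fitted. The fits on the longer list with DESeq2 and with kit version 2 were chosen after seeing the data. The latter left out dura at 24 h, whose kit version is uncertain.

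The difference in Tc share of brain between 24 h and control (1.56 percentage points) was -7.45 among lymphoid cells, 0.0690 among cells outside microglia (-3.41 for replicate 1 and 3.55 for replicate 2), 2.33 in cells with at least 1000 UMIs and -0.00122 to 3.11 with a library left out. In pia (2.88) it was 4.56 among lymphoid cells and 0.941 in cells with at least 1000 UMIs, and in dura (2.46) -2.66 and -0.125. The CD8 share of pia minus dura (17.7) was 27.0 without thinning, and the Cd4 share of dura at 24 h minus control (1.48) was 4.61 thinned to 1000 UMIs. Of 1450 values of 110 single genes 13 changed sign: Ikzf2 for stroke (-1.47 to 0.48 with a library left out, above 0 without a library of pia or dura) and for dura against brain (-0.34 thinned, -0.89 to 3.88), Gzmb for dura against brain (-1.49 to 0.79, above 0 without replicate 1 of brain at 24 h), and for pia against brain Bcl2l11 (-0.57 thinned, -0.39 to 7.83) and Skil (-0.26 thinned). Of the other values, 1108 kept their direction and stayed called or stayed not called, 71 lost the call and 258 gained it. The causes were not tested.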

Other observations

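Barcodes that the annotation leaves out also held T cell transcripts. Barcodes with UMIs of both a CD3 and a T cell receptor gene were 9 of 295 in control brain (3.05%), 7 of 378 and 13 of 880 in the replicates of brain at 24 h (1.85% and 1.48%) and 34 of 1347 in brain at 72 h (2.52%). They were 13 of 266 in control pia (4.89%), 37 of 400 in pia at 24 h (9.25%), 46 of 293 in control dura (15.7%) and 112 of 538 in dura at 24 h (20.8%). The order of the tissues was that of the annotated Tc share.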
